A study of Mus musculus with 6 samples.

Results

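The kinesin motor family was examined in mouse oocytes still arrested at the germinal vesicle (GV) stage, before the nuclear envelope breaks down and the meiotic divisions begin. Its members were chosen by gene symbol, which is Kif followed by a number and, where present, a letter. That gave 37 of the 25239 genes in the table. Kinesins with other symbols, such as Cenpe and the Kifc genes, were kept as a separate list of related motors.

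Oocytes came from female CD-1 mice, an outbred strain, aged 4 to 6 weeks. Cumulus-oocyte complexes, which are oocytes with their surrounding follicle cells, were injected with water (3 libraries) or with a mixture of phthalate metabolites (3 libraries). Both groups were then cultured in the same maturation medium, with serum, pyruvate and follicle-stimulating hormone at 200 mIU/mL, and collected at the GV stage. Phthalates are plasticizers, and the labels state neither the dose nor which metabolites were mixed. The question is what the mixture does to the RNA of the oocyte.

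Kinesins are motor proteins that use ATP to move along microtubules or to shorten them. Some cross-link or slide spindle microtubules, move chromosomes or build the cleavage site, and others carry vesicles, organelles or ciliary components. A GV oocyte stores messenger RNA made during its growth, and the divisions that follow run largely on that store, so motors of the meiotic spindle can be present as RNA before any spindle forms.

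Total gene counts were between 252267 and 300917 per library. The labels describe single oocytes but name no animal or culture that the libraries of a group came from, so each group counts as 1 sample. No difference was tested against replicates. Ratios were taken on sums over 3 libraries, with 95% intervals that cover counting error only. The 12 oocyte markers summed to between 8262 and 8416 counts in the water libraries and between 6712 and 8429 in the phthalate libraries. Gdf9, Padi6, Zp3 and Dppa3 made up 68.6% to 74.9% of these sums, and Figla, the sparsest marker, had 0 to 18 counts, with 0 in phthalate library 1. The 20 cumulus and granulosa cell markers summed to between 13 and 39 counts in the water libraries and between 10 and 27 in the phthalate libraries. Of these markers 9 were at 0 in all libraries, among them Amh, Foxl2 and Star. Most of the marker counts belonged to Nr5a2. The part of these cells in the values below was not tested.

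The kinesin genes differ in the sequence just before their start sites, and 7 of them are shown because their RNA ranged from the highest of the family to 0 counts. The letters are the last 60 bases before the RefSeq start site on GRCm38.p6, in the direction of the gene, and capitals mark matches on either strand to the cell cycle homology element TTTGAA or to the CCAAT box CCAAT. Both elements are known from promoters of genes of the dividing cell. On the other strand they read TTCAAA and ATTGG. In Kif22, Kif23 and Kif20b the start site used is not the outermost one of the RefSeq gene, and 47, 11 and 23 of the 60 bases lie within the gene's span.
Kif22 (chr7:127042421-127042480, minus strand): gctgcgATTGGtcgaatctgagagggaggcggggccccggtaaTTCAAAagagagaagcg
Kif11 (chr19:37376322-37376381, plus strand): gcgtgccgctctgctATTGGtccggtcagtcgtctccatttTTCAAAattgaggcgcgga
Kif15 (chr9:122951021-122951080, plus strand): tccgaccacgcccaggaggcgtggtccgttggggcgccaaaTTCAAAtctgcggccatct
Kif23 (chr9:61946800-61946859, minus strand): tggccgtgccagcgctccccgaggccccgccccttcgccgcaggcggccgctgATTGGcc
Kif4 (chrX:100626005-100626064, plus strand): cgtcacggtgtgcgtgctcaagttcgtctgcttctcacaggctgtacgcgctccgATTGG
Kif17 (chr4:138262191-138262250, plus strand): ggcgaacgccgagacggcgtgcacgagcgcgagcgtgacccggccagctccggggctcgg
Kif20b (chr19:34922298-34922357, plus strand): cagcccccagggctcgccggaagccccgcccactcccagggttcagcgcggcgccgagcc

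Kif22, Kif11 and Kif15 carry TTCAAA at nearly the same place, 17 to 12 bases before the start in Kif22 and 19 to 14 bases before it in Kif11 and in Kif15. Summed over the 6 libraries, Kif22 had 925 counts, Kif11 had 50 and Kif15 had 0. In these genes, chosen for display, the same letters near the start stood beside high, low and undetected RNA. The other kinesin genes with TTTGAA on either strand in this window were Kif1a, with 0 counts, and Kif26b, with 4. Kif17, with 695 counts, and Kif20b, with 170, hold neither element in these 60 bases. Of the 30 kinesin genes with a RefSeq promoter, 5 (16.7%) held TTTGAA in the last 60 bases on either strand, and 7 (23.3%) held CCAAT. Over all 27025 genes with a promoter the shares were 3.75% and 12.6%. In the whole 250 bases before the start the family was nearer to all genes, with 23.3% beside 18.3% for TTTGAA and 46.7% beside 37.5% for CCAAT. Of the 12 kinesin genes with a promoter that passed the filter on low counts described below, only Kif22 (8.33%) held TTTGAA in the last 60 bases, and 5 (41.7%) held CCAAT, beside 2.43% and 18.2% of all 3793 genes with a promoter that passed. The 2 motifs do not overlap in the sequences shown. A match is a description of letters and shows neither binding nor its absence.

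Of the 37 kinesin genes, 27 were detected in some library and 19 in every library. The 10 with 0 counts in all 6 libraries were Kif1a, Kif5a and Kif21a, which carry cargo in neurons, Kif6, Kif7 and Kif19a, which act in cilia, Kif2b and Kif15, which act on the spindle, and Kif12 and Kif28. A count of 0, with 3 counts as its upper limit, allows up to 3.51 CPM (counts scaled to 1000000 gene counts) over the water libraries and up to 3.65 over the phthalate libraries, for counting error only. If both mates of each pair were counted the limits are 7.02 and 7.30 CPM. Of these 10 genes, 4 overlap another gene with counts in the annotation: Kif7 with Ticrr (421 counts), Kif28 with Ahctf1 (103), Kif5a with Dctn2 (87) and Kif19a with Btbd17 (13). Reads shared by overlapping genes may be left uncounted or given to either, and how they were counted is not given in the sources used here. The number of members detected was 22, 23 and 23 in water libraries 1, 2 and 3, and 21, 24 and 23 in the phthalate libraries. The ranges of the groups overlapped.

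**Figure D1:**
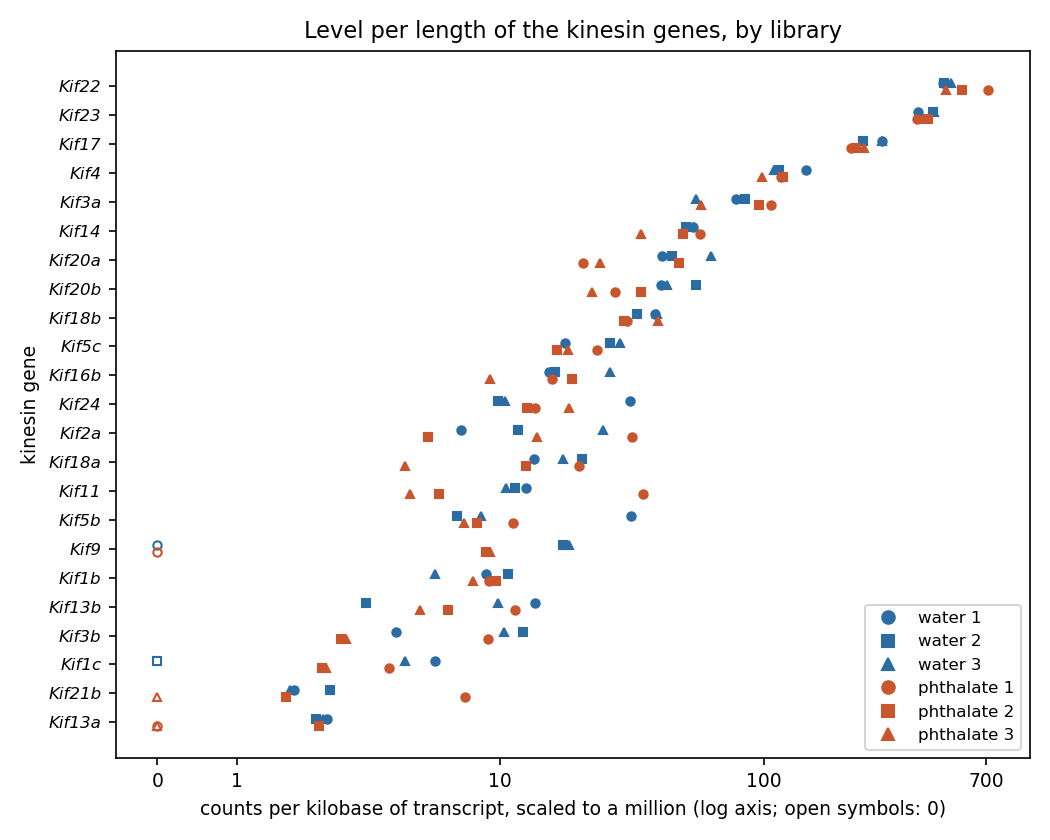
Level of each kinesin gene with a mean of at least 1 unit, in counts per kilobase of transcript scaled to 1000000 (log axis), with each library as a symbol (blue for water, orange for phthalate, open at 0). Kif22, Kif23 and Kif17 form the top of the order, and from Kif4 downward neighbouring genes mostly share their range.

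Levels between genes were compared per length, as counts per kilobase of the longest coding transcript, scaled to 1000000 over all genes. On this scale Kif22 was the highest, between 481 and 711 units over the 6 libraries, and ranked 313 among 12704 genes with a level. Kif23 followed with 383 to 445 units, Kif17 with 214 to 282, and Kif4 with 98.3 to 145. The ranges of these neighbours did not overlap. Below Kif4 the order was Kif3a, Kif14, Kif20a, Kif20b and Kif18b, and each of these shared part of its range with the next. Kif18b had 29.6 to 39.6 units and Kif5c 16.4 to 28.6 units. With the median length of a gene's transcripts in place of the longest, the first 5 genes kept their order, but Kif20b (mean 45.5 units) stood above Kif14 (34.6) and Kif20a (32.1), and Kif5c (26.6) above Kif18b (23.8). Kif11, which slides spindle microtubules apart, was far down the order with 4.55 to 34.9 units.

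The motors of the spindle, the chromosomes and cytokinesis held most of the family's counts. Their 12 genes took 69.0% of the family's counts in water and 71.2% in phthalate. The 9 ciliary motors took 21.3% and 20.4%, mostly from Kif17 and Kif3a, and the 12 transport motors took 9.52% and 8.32%. Kif23, Kif22 and Kif17 alone made up 54.3% of the family in water and 58.2% in phthalate.

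The family as a whole took 0.309%, 0.295% and 0.311% of the counts in water libraries 1, 2 and 3, and 0.304%, 0.284% and 0.260% in phthalate libraries 1, 2 and 3. Phthalate library 3 was the lowest, and phthalate library 1 lay within the water values. In the sums the share was 0.305% (95% exact binomial interval 0.293 to 0.317) for water and 0.282% (0.271 to 0.294) for phthalate, and these intervals overlapped slightly. Rn45s, the ribosomal RNA precursor, took between 2.02% and 2.35% of the water libraries and between 2.89% and 3.54% of the phthalate libraries. Phthalate minus water, the difference in share was -0.0226 percentage points, and -0.0201 with Rn45s out of the totals. Without phthalate library 3 it was -0.0114. From 2604 and 2321 counts, the log2 ratio of phthalate over water for the whole family was -0.094 (95% interval -0.18 to -0.013). It was -0.21 to 0.021 on halved counts, and with 1 library left out the ratio ranged from -0.13 to -0.074.

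**Figure D2:**
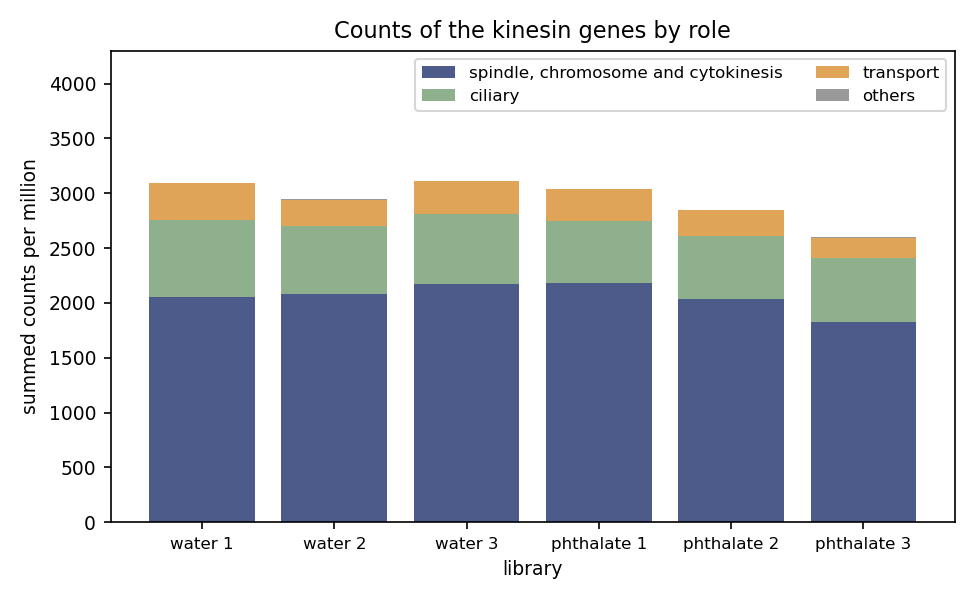
Summed CPM of the kinesin genes in each library, stacked by the role of the motors. The spindle, chromosome and cytokinesis motors fill most of every bar, between 1826 and 2184 CPM, and phthalate library 3 has the shortest bar.

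By role, the summed counts gave a log2 ratio of phthalate over water of -0.05 (95% interval -0.15 to 0.05) for the spindle, chromosome and cytokinesis motors, from 1797 and 1653 counts. The ratio was -0.16 (-0.34 to 0.02) for the ciliary motors and -0.29 (-0.57 to -0.01) for the transport motors, from 248 and 193 counts. The summed transport motors were at 338, 239 and 300 CPM in the water libraries and at 289, 237 and 182 CPM in the phthalate libraries. The groups overlapped there, with phthalate library 3 the lowest. With 1 library left out the ratio ranged from -0.43 (without phthalate library 1) to -0.18 (without phthalate library 3). On counts halved to read pairs the interval was -0.70 to 0.099.

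Of the 37 members, 14 passed the filter on low counts (edgeR's filterByExpr), and 13 others had between 2 and 72 counts over all libraries. None of the 14 passed through the libraries of 1 group alone. Among the 14, 10 had a lower and 4 a higher scaled sum in the phthalate group, and the median log2 ratio was -0.16. Lower sums thus made up 71.4% of the members. Over all 4644 genes that passed, lower sums made up 48.8% and the median was 0.0089. The members past a ratio of 1.5-fold were Kif20a and Kif20b, both lower in the phthalate group, which is 14.3% of the 14 beside a background of 8.14% of all genes that passed. No member was 1.5-fold higher, where the background was 6.96%. With 14 genes, a share of this size rests on single members. Kif20b was also the only member of the 14 whose CPM values did not overlap between the groups, or 7.14% beside a background of 5.49% lower without overlap. No member was higher without overlap, where the background was 4.52%. Among the 9 members whose mean count reached 20, the same 2 genes made up 22.2%, beside a background of 4.09% lower by 1.5-fold. Of 10 kinesin genes below the filter with more than 3 counts in either group, Kif21b was past 1.5-fold higher and Kif5b, Kif3b, Kif13a and Kif9 were past it lower, and none was without overlap. Sparse genes cross this fold often. Of all 5675 such genes 24.9% were past it higher and 28.8% lower, and 4.42% were higher and 4.55% lower without overlap.

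**Figure D3:**
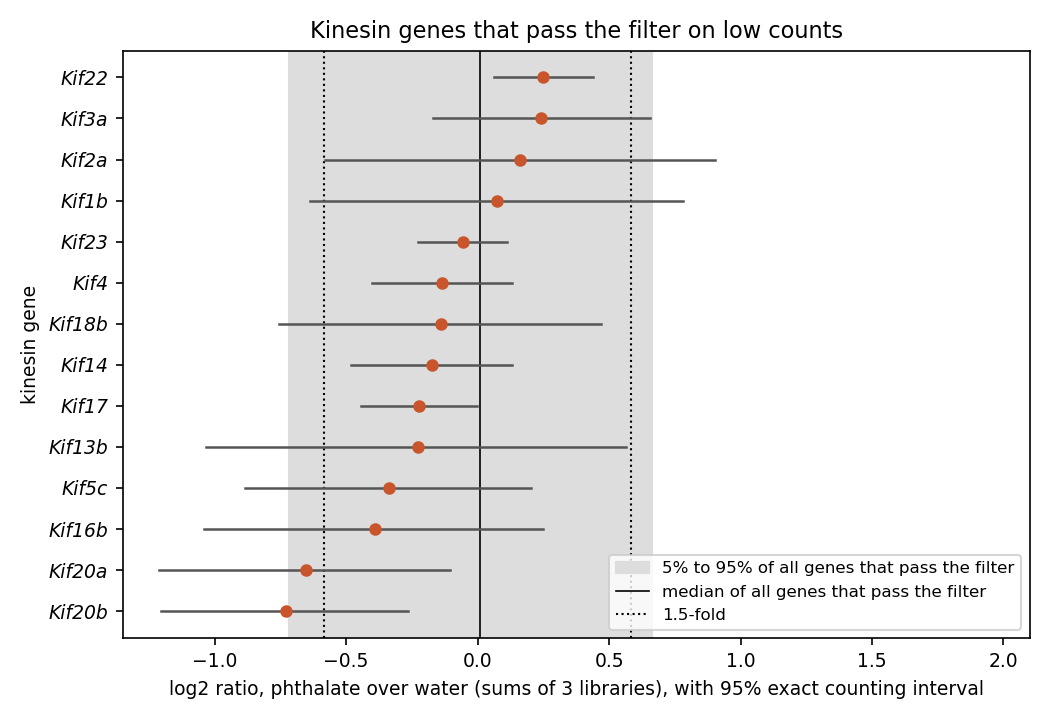
Log2 ratio of phthalate over water for the 14 kinesin genes that passed the filter (points, sums of 3 libraries) with 95% exact counting intervals. The grey band holds 5% to 95% of all 4644 genes, and Kif20a and Kif20b are the 2 points beyond the dotted 1.5-fold line.

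Kif20b and Kif20a encode kinesins of cytokinesis that act at the midzone between separating chromosomes. Kif20b (chr19:34922335-34975750, GRCm38) was at 111, 150 and 116 CPM in the water libraries and at 71.4, 91.5 and 61.8 CPM in the phthalate libraries. All 3 phthalate values lay below all 3 water values. Its counts summed to 108 and 62, a log2 ratio of -0.73 (95% interval -1.20 to -0.26), or 1.66-fold lower. Without water library 2, its highest, the ratio was -0.56, short of 1.5-fold. A microRNA gene with 0 counts, Mir1950, lies within it.

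Kif20a was at 74.2, 79.8 and 113 CPM in the water libraries and at 35.7, 84.7 and 43.6 CPM in the phthalate libraries. Phthalate library 2 lay within the water values and the other phthalate libraries lay below them. From 76 and 46 counts the log2 ratio was -0.65 (-1.21 to -0.11). It was -0.44 without water library 3, -0.42 without phthalate library 1 and -0.55 without phthalate library 3, all short of 1.5-fold, and -1.12 without phthalate library 2. Brd8, with 96 counts over all libraries, and Cdc23, with 11, overlap Kif20a in the annotation, and the use of strand in counting is not given in the sources used here. On counts halved to read pairs, the interval was -1.47 to 0.13 for Kif20a and -1.41 to -0.07 for Kif20b.

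**Figure D4:**
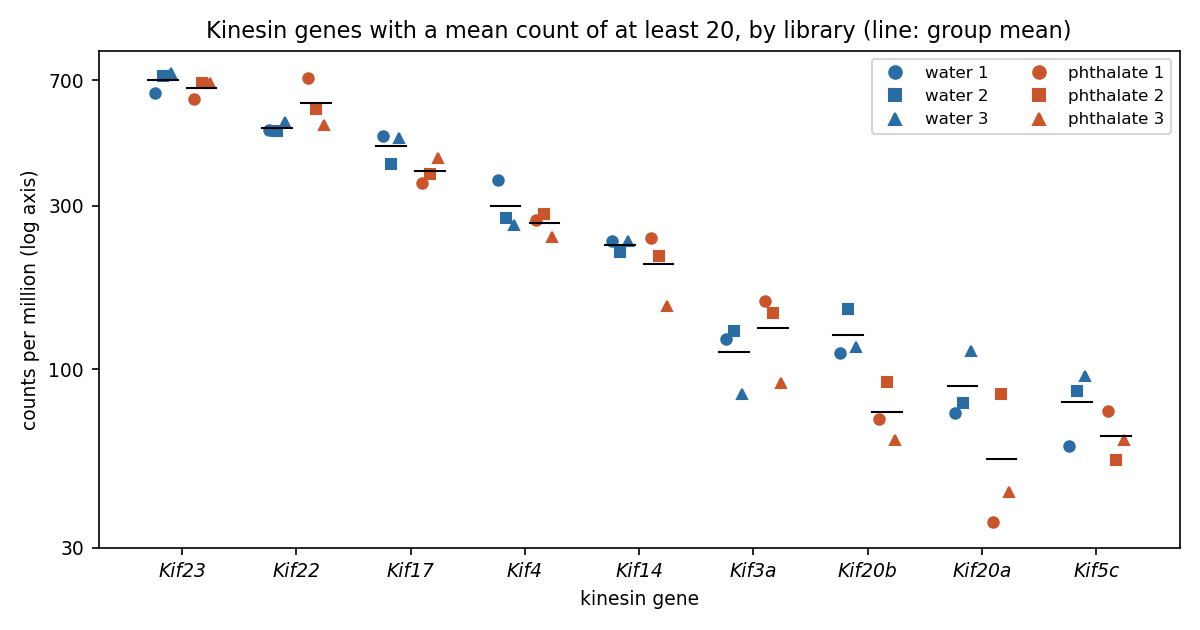
CPM (log axis) of the 9 kinesin genes whose mean count reached 20, with each library as a symbol and the group mean as a line. Kif20b shows no overlap between water (blue) and phthalate (orange), and in the other 8 genes the groups overlap.

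A further midzone motor, Kif23, is the kinesin of the centralspindlin complex, which organizes the cleavage site together with Racgap1. Kif23 (chr9:61917277-61946810) had the most counts of the family, at 642, 721 and 733 CPM in the water libraries and 614, 688 and 687 CPM in the phthalate libraries. The groups overlapped, and the log2 ratio was -0.06 (-0.23 to 0.11). Its partner Racgap1 had a ratio of -0.18 (-0.52 to 0.16). Per length, Kif23 was at 2.83 to 4.68 times the level of Racgap1. With the median transcript length the ratio was only 1.00 to 1.66, so its size depends on the length used.

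Kif22 and Kif4 are chromokinesins, motors that bind chromosome arms. Kif22 (chr7:127027729-127042467) was at 501, 495 and 529 CPM in the water libraries and at 710, 576 and 517 CPM in the phthalate libraries. Phthalate library 3 lay within the water values and the other phthalate libraries above them. The log2 ratio was 0.25 (0.06 to 0.44), and on halved counts the interval was -0.02 to 0.52. Without phthalate library 1 the ratio was 0.14. Kif4 (chrX:100626065-100727271) was at 356, 276 and 264 CPM in the water libraries and at 274, 285 and 244 CPM in the phthalate libraries, with a ratio of -0.14 (-0.40 to 0.13). Its pseudogene Kif4-ps could share reads with it. Prc1, the microtubule bundler that Kif4 binds at the midzone, exceeded Kif4 per length by 2.85 to 4.90 times (4.36 to 7.51 with the median transcript length), and its ratio was 0.00 (-0.17 to 0.17).

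Kif14, a motor needed in cytokinesis, was at 237, 219 and 236 CPM in the water libraries and at 242, 214 and 153 CPM in the phthalate libraries. Only phthalate library 3 stood clearly lower, and the log2 ratio was -0.17 (-0.48 to 0.13). Kif18b, a motor that shortens microtubules at their plus ends, was between 47.5 and 65.5 CPM in all libraries, with a ratio of -0.14 (-0.76 to 0.47).

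Several spindle motors were sparse and uneven between libraries. Kif11 had 8, 8 and 7 counts in the water libraries and 20, 4 and 3 in the phthalate libraries. Kif2a, which takes tubulin off microtubule ends, had 5, 9 and 18 counts in the water libraries and 20, 4 and 10 in the phthalate libraries. For both genes phthalate library 1 was the highest of the 6 and phthalate library 2 was below every water library. The log2 ratio of Kif2a was 0.16 (-0.58 to 0.90), and it rose past 1.5-fold, to 0.77 without water library 3 and to 0.64 without phthalate library 2. Dimt1, with 20 counts, overlaps Kif2a. Kif18a, which limits chromosome movement during alignment, had 24 counts over the water libraries and 16 over the phthalate libraries.

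Among the ciliary motors, Kif17 carries cargo in cilia and dendrites. Kif17 (chr4:138262251-138301973) was at 479, 399 and 472 CPM in the water libraries and at 349, 373 and 415 CPM in the phthalate libraries. The highest phthalate library lay above the lowest water library, so the groups overlapped. The log2 ratio was -0.22, with an interval whose lower end was -0.44 and whose upper end lay just under 0. On halved counts it was -0.53 to 0.09.

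Kif3a and Kif3b encode the motor subunits of the heterotrimeric kinesin of ciliary transport, and Kifap3 its accessory subunit. Kif3a was at 122, 130 and 84.6 CPM in the water libraries and at 159, 146 and 90.9 CPM in the phthalate libraries, with a log2 ratio of 0.24 (-0.17 to 0.65). Kif3b had 3, 10 and 8 counts in the water libraries and 6, 2 and 2 in the phthalate libraries. Per length Kif3a exceeded Kif3b in every library, by 5.35 to 38.3 times (7.62 to 54.6 with the median transcript length), and the groups overlapped in that ratio. Kifap3 had 7 counts in all 6 libraries together. Kif24, a regulator of the centriole, had 39 and 33 counts, of which 23 were in water library 1. Kif9 had 8 counts in water libraries 2 and 3, 4 counts in phthalate libraries 2 and 3, and 0 in library 1 of each group. Kif27 had 2 counts in all.

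Of the transport motors, Kif5b and Kif5c encode heavy chains of conventional kinesin, which carries organelles with the kinesin light chains. Kif5c, best known from neurons, was at 59.4, 86.4 and 95.1 CPM in the water libraries and at 75.3, 54.2 and 61.8 CPM in the phthalate libraries. Its log2 ratio was -0.34 (-0.88 to 0.20). Kif5b, the widely expressed heavy chain, had 25, 6 and 7 counts in the water libraries and 8, 7 and 6 in the phthalate libraries. Water library 1 thus stood alone, and the other 5 libraries had between 6 and 8 counts. Per length Kif5c was above Kif5b in 5 of 6 libraries.

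Kif16b, a motor of early endosomes, had 51 and 37 counts in the groups and a log2 ratio of -0.39 (-1.04 to 0.25). Kif1b, a carrier of mitochondria and vesicles, had 36 counts in each group and a ratio of 0.07 (-0.64 to 0.78). Kif13b had 32 and 26 counts and a ratio of -0.23 (-1.03 to 0.56). The remaining transport motors were sparse. Kif21b had 7 and 10 counts, Kif1c had 9 and 7, Kif13a had 6 and 2, and Kif3c had 0 and 2. Kif26b, a member with a divergent motor domain, had 4 counts, all in water library 2, and Kif26a had 2, in phthalate library 3.

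Motors and partners outside the family were read from 4 lists. The list of 5 related motors had 3 genes that passed the filter, with a median log2 ratio of -0.20 and none of the 3 past 1.5-fold. The median was 0.28 without water library 1, -0.020 without phthalate library 2 and -0.055 without phthalate library 3. The gene with the most counts, Cenpe, which links kinetochores to microtubules, was at 382, 432 and 370 CPM in the water libraries and at 365, 410 and 244 CPM in the phthalate libraries. Per length Cenpe had a mean of 103 units in water and Kifc3 70.6, but with the median transcript length Kifc3 stood above it, at 227 against 130. Kifc1, a minus-end motor of the spindle pole, had 81 and 77 counts, with an interval of the ratio from -0.47 to 0.47. Kifc5b, a near copy of Kifc1 whose reads may be shared with it, had 4 and 11. It was below the filter and past 1.5-fold higher, at 1.53 (-0.22 to 3.64, and -1.22 to 4.79 on halved counts). Of all genes below the filter with a ratio, 24.9% were past it higher.

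Of 10 kinesin light chains and adaptors 4 passed, with a median log2 ratio of 0.42, which was 0.12 without phthalate library 1 and 0.26 without phthalate library 3. Klc1 and Trak1 were past 1.5-fold, both higher in the phthalate group, and none of the 4 was past it lower. The 4 genes stand beside a background of 6.96% of all genes past 1.5-fold higher and a median of 0.0089. Klc1, a light chain of conventional kinesin, was at 33.4, 36.6 and 42.3 CPM in the water libraries and at 55.5, 64.4 and 61.8 CPM in the phthalate libraries. Klc1 was thus without overlap, beside a background of 4.52% of all genes that passed higher without overlap. Its ratio was 0.72 (0.05 to 1.40), and -0.25 to 1.72 on halved counts. With each library left out in turn, Klc1 was past 1.5-fold every time. Trak1, the adaptor that joins mitochondria to kinesin, had 20, 20 and 26 counts in the water libraries and 36, 44 and 15 in the phthalate libraries. Phthalate library 3 lay below all water libraries there, and the ratio was 0.60 (0.13 to 1.07, and -0.09 to 1.27 on halved counts). It was short of 1.5-fold without water library 1 (0.55), water library 2 (0.50), phthalate library 1 (0.46) or phthalate library 2 (0.36). Of 4 genes below the filter with a ratio, 1 (Klc4, with 7 and 11 counts) was past 1.5-fold higher and 2 lower, where the background below the filter was 24.9% and 28.8%. Klc2, another light chain, was lower, with 12, 8 and 12 counts in the water libraries and 0, 8 and 6 in the phthalate libraries. Its ratio was -1.12 (-2.14 to -0.17), and -2.64 to 0.24 on halved counts. Trak2, the close relative of Trak1, had 10 counts over the water libraries and 2 over the phthalate libraries, with an interval of the ratio from -5.48 to -0.02, and from -7.81 to 0.91 on halved counts. The summed level per length of Kif5b and Kif5c over that of Klc1, Klc2 and Klc4 was 0.747, 0.554 and 0.594 in the water libraries and 0.680, 0.275 and 0.334 in the phthalate libraries. Phthalate libraries 2 and 3 were below the water range and phthalate library 1 was within it. With the median transcript length these ratios were 1.11, 0.892 and 0.936 in the water libraries and 1.06, 0.433 and 0.528 in the phthalate libraries, and phthalate libraries 2 and 3 were again below the water range. Which of the 2 sums was higher depends on the length used.

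Of 28 dynein and dynactin genes, which form the motor that runs opposite to most kinesins, 13 passed, with a median log2 ratio of -0.16, or -0.029 without water library 1, -0.069 without phthalate library 1 and -0.25 without water library 3. Of these 13, only Bicd2, a cargo adaptor of dynein, was past 1.5-fold lower, beside a background of 8.14%, at -0.96 (-1.75 to -0.21, and -2.18 to 0.10 on halved counts). It had 12, 18 and 17 counts in the water libraries and 8, 11 and 4 in the phthalate libraries. The CPM values of Bicd2 did not overlap, beside a background of 5.49% of all genes that passed lower without overlap. Of 11 genes below the filter with a ratio, 4 were past 1.5-fold higher and 2 lower, beside the 24.9% and 28.8% of all genes below it. Dctn1 (11 and 20 counts over the groups) and Actr1b (6 and 9) were among the higher, and Dynlt1b (14 and 6) and Hook3 (27 and 17) were the lower ones, all with intervals that include 0. Dync1li2, a light intermediate chain, had 0, 6 and 0 counts in the water libraries and 9, 6 and 6 in the phthalate libraries, with a ratio of 1.88 (0.52 to 3.48, and -0.15 to 4.31 on halved counts). Dynlt3, a light chain, had 2 counts in each water library and 8, 4 and 6 in the phthalate libraries, with a ratio of 1.66 (0.26 to 3.28, and -0.35 to 4.18 on halved counts). In both genes the CPM values were higher in the phthalate libraries without overlap, beside a background of 4.42%. For Dync1li2, water library 2 and phthalate libraries 2 and 3 had 6 counts each. Their CPM (19.9 against 20.3 and 21.8) differ only through the library totals. Actr10, a dynactin subunit, was lower without overlap, beside 4.55%, with 7, 7 and 6 counts in the water libraries and 5 in each phthalate library. Its ratio was -0.34 (-1.41 to 0.70). The most abundant gene of the list per length was the light chain Dynlrb1, with a ratio of -0.21 (-0.47 to 0.05).

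Of 10 spindle partners of the motors 9 passed, with a median log2 ratio of -0.18. Ckap5, which speeds microtubule growth, was the only gene of these 9 past 1.5-fold, beside a background of 8.14% lower, at -0.63 (-0.99 to -0.26, and -1.16 to -0.11 on halved counts). It was at 171, 216 and 197 CPM in the water libraries and at 91.2, 183 and 94.6 CPM in the phthalate libraries, where phthalate library 2 overlapped with the water values. It was short of 1.5-fold without water library 2 (-0.53), phthalate library 1 (-0.44) or phthalate library 3 (-0.51), and at -1.03 without phthalate library 2. Kif20a had the same order of phthalate libraries, with library 2 the highest. Tpx2, a spindle assembly factor, was at 237, 243 and 187 CPM in the water libraries and at 214, 190 and 124 CPM in the phthalate libraries. Phthalate library 3 was the lowest, the groups overlapped, and the ratio was -0.33 (-0.65 to -0.0077, and -0.79 to 0.13 on halved counts). Tacc3, a spindle protein that acts with Ckap5 and the most abundant of the list, had a ratio of 0.16 (0.02 to 0.30, and -0.04 to 0.36 on halved counts). Hmmr, the gene of the list that did not pass, had 0, 0 and 2 counts in the water libraries and 2, 10 and 4 in the phthalate libraries. Its CPM values did not overlap, where 4.42% of genes below the filter were higher without overlap. Water library 3 and phthalate library 1 had 2 counts each, so their CPM (7.05 and 7.93) differ only through the library totals. The interval of the ratio of Hmmr was 0.98 to 6.24, or 0.17 to 8.54 on halved counts.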

How the data were processed

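The authors deposited raw counts per gene symbol, 1 column per library, with 92 ERCC spike-in rows that were left out of totals. Smart-seq3 libraries (full-length cDNA from an oligo(dT) primer) were sequenced as read pairs, per the labels' protocols. The submitters' processing notes name cutadapt, Trimmomatic, HISAT2, DESeq2 and mm10. The counting tool, the annotation and the use of strand and of molecular identifiers are not given in the sources used here. Of the counts from 1 to 20, 69.9% are even, so both mates of a pair may be counted, and intervals were also computed on halved counts. PCR copies are not independent molecules.

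Members and lists were chosen with earlier results of these data known. 1 further gene of the symbol pattern is not reported here. Genes were filtered with filterByExpr (edgeR 4.0.16, R 4.3.3, minimum count 10, minimum total count 15). The log2 ratio is that of group sums over library totals scaled by TMM factors, with a Clopper-Pearson interval for the phthalate part of both sums. The script was tested on simulated data that held counting error only and were scaled by library totals. It was thus not tested for TMM scaling, nor for intervals on counts with PCR copies or extra spread between libraries. Libraries of a group differed by a chi-square per degree of freedom from 1.17 to 2.31 on halved counts. PCR copies also raise this value, so it does not show that they are separate samples. Lengths came from GENCODE M21 (24715 of 25239 genes, 97.1% of counts) and promoters from RefSeq (30 of the 37 kinesin genes). Kinesin genes whose mean count reached 20 were named with all values, as were genes past 1.5-fold that passed the filter. Other members are given by counts, and further partners named were chosen after their values were seen.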

Additional observations from a re-analysis of the deposited data

How the results depend on the processing

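Scaling by median-of-ratios size factors or by library totals alone left Kif20a and Kif20b as the genes past 1.5-fold. Leaving out 1 library gave medians over the 14 kinesin genes from -0.22 to -0.12, from 0 to 1 genes past 1.5-fold higher and from 1 to 3 lower. The gene past it higher was Kif2a. The differences in the family's share of counts were from -0.0322 to -0.0114 percentage points, and those in members detected from -0.66 to 0.78. Kif20b lost its place without water library 2, where Kif13b took it, and Kif20a without water library 3, phthalate library 1 or phthalate library 3. Without a filter, but leaving out genes with at most 3 counts in each group, the median was -0.23, with 1 gene (Kif21b) past 1.5-fold higher and 6 lower, since sparse genes then enter. At 2-fold 0 genes were lower. The difference in members detected was -0.025, and -1.8 when 5 counts were required. With the median transcript length the level of Kif22 in water was 1005 units in place of 494. The cause was not tested. For 9 single genes, all 72 alternatives stayed within the counting interval. The alternatives reuse the counts that set this interval, so staying within it says little about how firm a ratio is.

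With 1 library left out, the medians ranged from -0.27 to 0.28 for the related motors, from 0.12 to 0.59 for the light chains and adaptors, from -0.25 to -0.029 for dynein and dynactin and from -0.23 to -0.13 for the spindle partners. The ratios between motors and partners with the median transcript length, the family's ratio without 1 library the limits for a count of 0 on read pairs and the halved intervals outside single kinesin genes were chosen after seeing the data. No paired analysis was possible because no label ties a water library to a phthalate library. Each group counts as 1 sample where no animal or culture is named. At 252267 to 300917 counts per library, 9 kinesin genes reached a mean count of 20. For all other kinesin genes with counts the counting interval of the ratio included 0. The same held for Kif23, Kif4, Kif14, Kif3a and Kif5c among the 9.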
